A study of Mus musculus with 18 samples.

Results

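The serum amyloid A genes of the mouse lie in one cluster on chromosome 7. They were followed here through sorted cells of normal pancreas and of pancreatic ductal tumors. The 5 genes described were chosen by name from the 23951 gene symbols of the deposited table: Saa1, Saa2, Saa3 and Saa4, and Saal1, the gene next to Saa3 in the cluster. Of these, 3 (Saa1, Saa3 and Saal1) reached 1 FPKM (fragments scaled to transcript length and to the mapped fragments of the library) in at least 3 of the 18 libraries and entered the test across 13369 genes. Saa2 and Saa4 did not reach that level and are described by their values alone.

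Serum amyloid A proteins are small apolipoproteins that associate with high-density lipoprotein and whose synthesis rises sharply in inflammation and tissue injury. Interleukin 6, interleukin 1 and tumor necrosis factor induce the genes through STAT3, NF-kB and C/EBP factors. In the mouse, Saa1 and Saa2 are made above all by hepatocytes in the acute-phase response. Saa4 is the constitutive member, and Saa3 is made largely outside the liver, by macrophages, adipocytes, fibroblasts and epithelial cells. Saal1 carries the family's name by its position and encodes an unrelated protein.

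Poly(A) RNA was sequenced from 5 groups of cells sorted from fresh tissue, and the design text gives biological replicates for each. Normal pancreatic fibroblasts (NPF, n = 3) came from K-Ras +/+ mice with the Elas-tTA/tetO-Cre transgenes and a Rosa26 +/EYFP reporter. For this group no Trp53 lox allele is listed. Tumor-associated fibroblasts (WT_CAF, n = 5) and tumor cells (WT_tumor, n = 4) came from mice that carried the same transgenes and reporter, the K-Ras LSLG12Vgeo allele on one chromosome and Trp53 lox/lox. KO_CAF (n = 3) and KO_tumor (n = 3) are the same cell types from mice that were in addition Saa3 -/-. The elastase promoter drives the transactivator, and through it Cre, in acinar cells, so the K-Ras and Trp53 alleles are recombined in that lineage, whereas the Saa3 -/- genotype is given for the whole animal. WT_CAF and NPF thus differ in genotype as well as in the state of the tissue. The sources used here do not give the part of Saa3 that was deleted, the ages of the mice or the surface markers of the sort. Libraries are named by group and a number in deposition order, which pairs nothing.

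Fragment counts were not used here, so the depth behind a value is unknown. Summed FPKM ran from 396646 to 919859 per library, and 10657 to 11670 genes reached 1 FPKM. The labels give an index sequence in 3 forms (none, 6 bases or 16 bases). All 3 NPF libraries and WT_CAF 1 and 2 have none, and the other groups have only the 2 indexed forms. Against its fibroblast label, WT_CAF 1 held Pdgfra, a fibroblast receptor, at 9.80 FPKM, where the other 4 WT_CAF libraries held 81.0 to 121, and the duct keratin Krt19 at 119 FPKM, where they held 7.04 to 41.6. Krt8 (252 FPKM against 9.91 to 116), Krt18 (245 against 6.57 to 113), Sox9 and Cdh1 were also highest of WT_CAF in that library. Epcam, Krt7, Cldn4 and Cldn7 were the lowest of WT_CAF there. Epcam was at 0.220 FPKM, where the others held 0.552 to 12.1, and Krt7 at 0.472, where they held 2.54 to 39.4. Over the 10 epithelial markers, mean log2(FPKM + 1) was 3.27 in WT_CAF 1 and 1.91 to 4.13 in the other 4. The library labelled WT_tumor 4 held Epcam at 2.60 FPKM, and the other 3 WT_tumor libraries held 129 to 549. Its Krt8 and Krt18 were nearer to theirs, at 1188 FPKM against 1217 to 1544 and at 1109 against 1150 to 1817. Krt19 was at 438 FPKM against 485 to 1040, but Krt7 was at 134 against 517 to 1347. The mean over the 10 markers was 5.56 in WT_tumor 4 against 7.45 to 8.70. Because the samples are bulk RNA, fewer cells of a type and less RNA per cell cannot be told apart.

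Saa3 made up 91.2% or more of the summed FPKM of Saa1 to Saa4 in each of the 16 libraries with any value above 0. Its FPKM in WT_CAF 1 to 5 was 7.24, 892, 4278, 1182 and 2270. In NPF 1 to 3 it was 331, 5.32 and 3.13. In WT_tumor 1 to 4 it was 4.10, 2.75, 106 and 3.13. Thus 4 of the 5 WT_CAF libraries stood above all other libraries, while WT_CAF 1 lay close to the low NPF and WT_tumor libraries, and NPF 1 and WT_tumor 3 each stood far above their own group. Ranked by FPKM within its library, Saa3 was the 11th gene in WT_CAF 5, the 16th in WT_CAF 3, the 48th in WT_CAF 4 and the 121st in WT_CAF 2, but the 6342nd in WT_CAF 1. In NPF 1 it ranked 364th and in WT_tumor 3 608th.

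In the knockout groups Saa3 checks the labels. KO_CAF 1 to 3 held 1.85, 1.16 and 0.434 FPKM. KO_tumor 1 held 0.346 FPKM, and Saa3 was listed at 0 in KO_tumor 2 and 3. All 6 knockout libraries lay below all 12 libraries with intact Saa3, so the gene's level matched the labels. The limma difference on log2(FPKM + 1) was -10.40 ± 1.80 for KO_CAF minus WT_CAF (adjusted p = 0.32) and -3.04 ± 1.64 for KO_tumor minus WT_tumor (adjusted p = 1). The first of these rests on WT_CAF 3 to 5, because WT_CAF 1 and 2 share their index form only with NPF. The plain difference of means over all KO_CAF and WT_CAF libraries was -8.21.

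**Figure D1:**
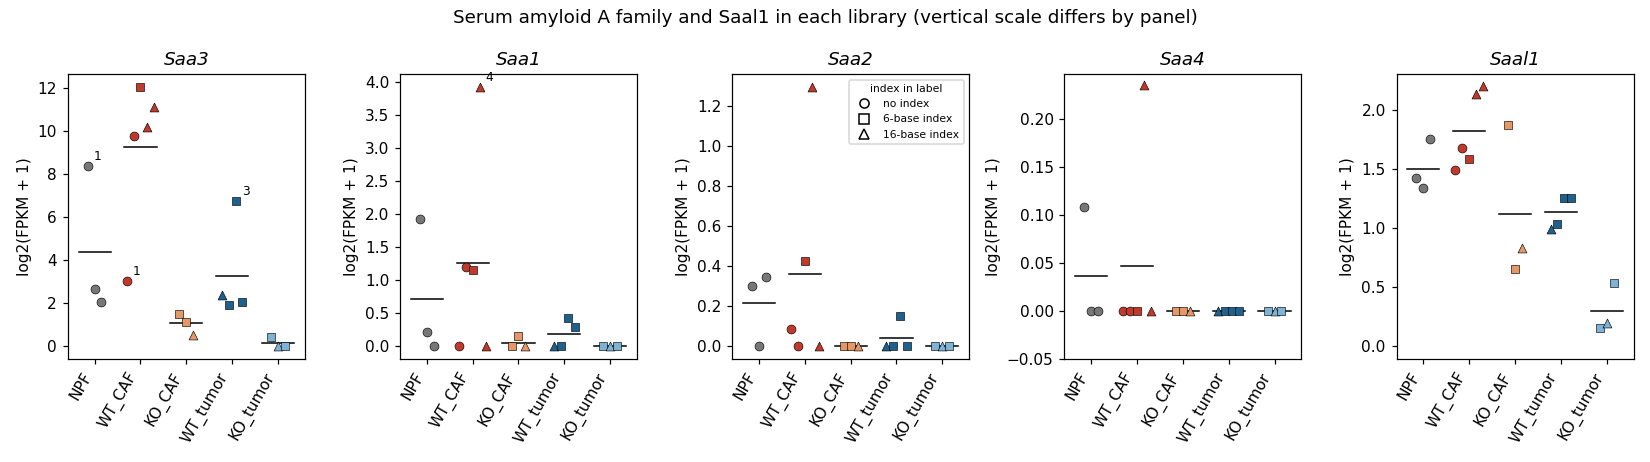
Level of the 5 genes in each of the 18 libraries as log2(FPKM + 1), by group, with 1 panel a gene and a vertical scale of its own. Points are libraries, marker shapes stand for the kind of index, and horizontal lines are group means. Saa3 reached 4278 FPKM in WT_CAF 3 and Saa1 14.2 FPKM in WT_CAF 4, while Saal1 stayed at or below 3.61 FPKM in all libraries.

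Group means of Saa3 were 1726 ± 1640 FPKM in WT_CAF (SD, n = 5), 113 ± 189 in NPF (SD, n = 3), 29.0 ± 51.4 in WT_tumor (SD, n = 4), 1.15 ± 0.707 in KO_CAF (SD, n = 3) and 0.115 ± 0.200 in KO_tumor (SD, n = 3). With SDs near or above most of these means, the medians describe the groups better. They were 1182 FPKM in WT_CAF, 5.32 in NPF, 3.61 in WT_tumor, 1.16 in KO_CAF and 0 in KO_tumor. The WT_CAF median was 222 times that of NPF and 327 times that of WT_tumor. None of the neighbouring pairs in this order differed beyond its spread by test. Exact two-sided permutation tests on log2(FPKM + 1) gave p = 0.107 for WT_CAF against NPF, 0.486 for NPF against WT_tumor, 0.0857 for WT_tumor against KO_CAF and 0.1 for KO_CAF against KO_tumor, the last being the smallest that 3 against 3 libraries allow. Over all 5 genes and 10 pairs of groups, 50 such tests were made, and the lowest Benjamini-Hochberg adjusted p was 0.223.

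The linear model across all genes (limma, with the form of the index as a term) estimates differences on the log2(FPKM + 1) scale, given with their standard errors. A gene was called at an adjusted p under 0.05. Only NPF and WT_CAF 1 and 2 have no index. With the index term, estimates of WT_CAF against tumor or knockout groups therefore rest on WT_CAF 3 to 5. Those against NPF rest on WT_CAF 1 and 2. Leaving out WT_CAF 1 changes the standard errors of the former but not the estimates. Saa3 was lower in tumor cells than in tumor fibroblasts by this test, with a WT_tumor minus WT_CAF difference of -8.26 ± 1.72 (limma adjusted p = 0.0047). The plain difference of means over all libraries of both groups was -5.99. The call held in all 29 alternative analyses, in which the difference ran from -9.21 to -5.99 and the adjusted p from 8.9e-05 to 0.044. Within the 6-base index the difference of means was -8.50 and within the 16-base index -8.33. The 2 groups overlapped only through WT_CAF 1 and WT_tumor 3 (exact permutation p = 0.0397, adjusted 0.283). In this comparison 2 of the 3 tested genes of the cluster, Saa3 and Saal1, were called lower, where 12.5% of all tested genes were, out of 21.5% called in either direction.

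The model called no Saa3 difference between tumor fibroblasts and normal fibroblasts. WT_CAF minus NPF was 2.06 ± 1.95 (limma adjusted p = 0.63), and this estimate rests on WT_CAF 1 and 2, which share the index form of the NPF libraries. Those 2 libraries held 7.24 and 892 FPKM. Without WT_CAF 1 the difference was 5.44 and rested on WT_CAF 2 alone. Without WT_CAF 2 the difference was -1.32 and rested on WT_CAF 1 alone. With WT_CAF 1 left out and no index term, so that WT_CAF 2 to 5 enter together, it was 6.44 ± 1.31 (limma adjusted p = 0.0076). Because WT_CAF 1 is the WT_CAF library lowest in Saa3, leaving it out favors a difference, and no conclusion is drawn from that call. None of the 3 tested genes was called, at an adjusted or an unadjusted p under 0.05, where 0.95% of all genes were called at the adjusted threshold.

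Libraries high or low in Saa3 within their group also differed in markers of cell types. For 7 fibroblast markers (Pdgfra, Pdgfrb, Dcn, Lum, Fap, Thy1 and Pdpn), mean log2(FPKM + 1) was 3.32 in WT_CAF 1 and 5.99 to 7.54 in WT_CAF 2 to 5. In WT_tumor 3 it was 3.15, with 7 of 7 markers at 1 FPKM or more, and in the other WT_tumor libraries it was 0.49 to 0.90. KO_CAF libraries had 6.79 to 7.43. Summed over the list, the markers ran from 105.8 to 11415 FPKM in WT_CAF, 2388 to 5375 in NPF, 3.82 to 134 in WT_tumor, 1964 to 7539 in KO_CAF and 3.46 to 34.9 in KO_tumor. In NPF the order was the reverse of that of Saa3: NPF 1 had a mean of 6.31, and NPF 2 and 3 had 7.08 and 7.56. Collagens were left out of this mean, after the values were seen, because they were listed at 0 in several fibroblast libraries.

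For 9 macrophage markers the mean was 1.54 in WT_CAF 1 and 2.51 to 3.47 in WT_CAF 2 to 5. It was 3.16 in WT_tumor 3, 1.30 to 2.36 in the other WT_tumor libraries and 1.87 to 3.36 in KO_tumor. Cd14 of this list went the other way, at 91.9 FPKM in WT_CAF 1 and 18.7 to 37.6 in WT_CAF 2 to 5. Cd68, at 6.61 FPKM in WT_CAF 1, lay within their range of 4.45 to 8.76. Summed, the 9 macrophage markers ran from 67.2 to 208 FPKM in WT_CAF, with 103.8 in WT_CAF 1. They ran from 39.1 to 231 FPKM in WT_tumor and 20.0 to 101.9 in NPF. Ptprc, which marks all leukocytes, was between 0.02 and 1.45 FPKM in all 18 libraries. Over 10 mesothelial markers the mean was 1.91 in WT_CAF 1 and 2.54 or more in WT_CAF 2 to 5. Msln and Krt19 of this list went the other way, with Msln at 177 FPKM in WT_CAF 1 and 3.42 to 63.1 in WT_CAF 2 to 5. The mesothelial mean was 2.83 in NPF 1, the NPF library with the most Saa3, and 2.18 and 2.55 in NPF 2 and 3. Nkain4 of this list was at 132, 13.5 and 11.4 FPKM in NPF 1 to 3. Msln, Bnc1 and Gpm6a were also highest of NPF in NPF 1. Wt1 went the other way, at 2.01, 4.08 and 11.1 FPKM, and Upk1b, Cldn15, Lrrn4 and Krt19 were likewise lowest of NPF in NPF 1. Acinar markers (10 genes) summed to 1248, 7488 and 50314 FPKM in NPF 1 to 3, in the reverse order of Saa3. Neutrophil markers (9 genes) summed to 88.3, 10.3 and 3.51 FPKM there. Most of this was S100a8, at 83.8, 9.91 and 2.53 FPKM, while S100a9 was listed at 0 in NPF 1 and 2.

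Hepatocyte markers (10 genes) summed to 126 to 2772 FPKM in WT_tumor and 62.3 to 375 in KO_tumor. Among the fibroblasts, the sums were 85.4 to 451 FPKM for WT_CAF, 188 to 388 for KO_CAF and 10.6 to 21.2 for NPF. The larger part of the sum in each fibroblast library was 1 gene, Trf. It was at 82.5 to 420 FPKM in WT_CAF, 146 to 385 in KO_CAF and 7.92 to 17.2 in NPF. The highest sum was that of WT_tumor 2, with Fabp1 at 1608 and Cyp3a11 at 754 FPKM, and WT_CAF 5 held these genes at 29.2 and 24.9 FPKM. Alb, which defines hepatocytes, was at or below 0.84 FPKM in all 18 libraries. Adipocyte markers (10 genes) summed to 11.4 to 40.9 FPKM in WT_tumor and to at most 35.2 in KO_tumor. Among the fibroblasts, the sums were 22.5 to 344 FPKM for WT_CAF, 186 to 389 for KO_CAF and 222 to 480 for NPF. Fabp4 and Lpl of this list reached 265 and 419 FPKM in NPF, and Adipoq, which defines adipocytes, was at or below 3.11 FPKM throughout. The part of cell composition in the Saa3 differences was not tested.

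**Figure D2:**
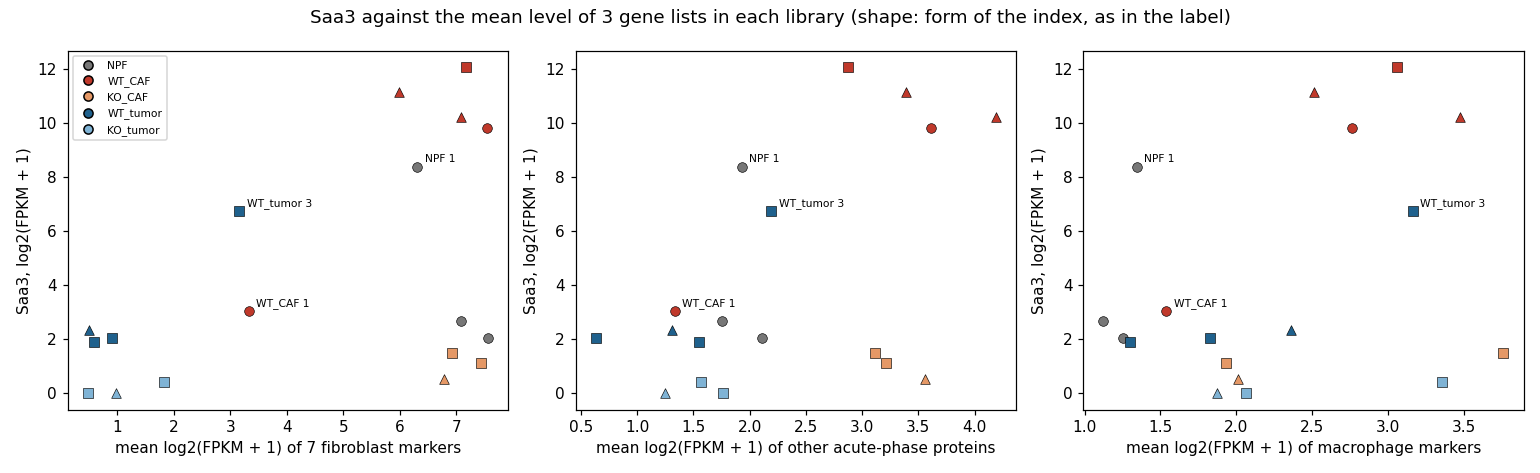
Saa3 as log2(FPKM + 1) in each of the 18 libraries (vertical axis) against the mean log2(FPKM + 1) of 7 fibroblast markers, of other acute-phase proteins and of macrophage markers (horizontal axes, 1 panel each). Colors give the group and shapes the kind of index. WT_CAF 1 has 3.32 on the fibroblast axis, apart from the other WT_CAF libraries, and the KO_CAF libraries lie at 6.79 to 7.43 with Saa3 at or below 1.85 FPKM.

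Saa1 and Saa2, the acute-phase pair of the liver, were low throughout. Both genes are nearly copies of one another, and the stretch before the start of each shows how far the likeness goes. The 250 bases before the RefSeq start of the 4 Saa genes are printed here, on the gene's own strand (GRCm38.p6). Capitals mark matches, on either strand, to TTNNGCAA, a core of the C/EBP site, which was shortened to these letters after the sequences were seen. RefSeq promoters were found for 4 of the 5 genes.
Saa1 (chr7:46742981-46743230, minus strand): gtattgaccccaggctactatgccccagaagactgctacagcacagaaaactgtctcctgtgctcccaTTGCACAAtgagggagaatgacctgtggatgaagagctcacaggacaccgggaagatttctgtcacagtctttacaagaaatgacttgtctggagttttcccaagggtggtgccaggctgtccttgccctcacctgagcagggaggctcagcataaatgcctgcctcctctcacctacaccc
Saa2 (chr7:46751583-46751832, plus strand): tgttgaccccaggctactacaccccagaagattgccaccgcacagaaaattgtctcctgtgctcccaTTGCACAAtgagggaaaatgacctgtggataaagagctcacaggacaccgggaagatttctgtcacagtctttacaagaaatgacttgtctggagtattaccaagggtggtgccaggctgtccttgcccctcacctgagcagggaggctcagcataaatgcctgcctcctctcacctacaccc
Saa3 (chr7:46715677-46715926, minus strand): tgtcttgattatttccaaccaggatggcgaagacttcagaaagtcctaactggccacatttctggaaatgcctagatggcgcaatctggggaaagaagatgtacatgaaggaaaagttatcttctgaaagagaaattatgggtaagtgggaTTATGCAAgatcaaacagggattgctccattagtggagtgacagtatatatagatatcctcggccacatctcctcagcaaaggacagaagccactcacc
Saa4 (chr7:46732604-46732853, minus strand): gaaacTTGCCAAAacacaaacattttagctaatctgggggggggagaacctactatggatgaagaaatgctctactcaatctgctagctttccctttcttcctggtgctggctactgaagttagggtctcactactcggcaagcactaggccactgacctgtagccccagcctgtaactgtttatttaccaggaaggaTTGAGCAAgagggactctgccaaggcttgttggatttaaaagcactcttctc

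Aligned with each other, the Saa1 and Saa2 promoters were identical at 238 of 249 bases (95.6%). Both held the C/EBP letters in the same setting, 182 to 175 bases before the start in Saa1 and 183 to 176 in Saa2. Saa3 held them 99 to 92 bases before its start, and Saa4 at 245 to 238 and at 52 to 45. Of 32851 promoters of this length in RefSeq, 9.56% held at least 1 match. The STAT letters TTCNNNGAA occurred in none of the 4 and in 7.02% of all. A match is a description of the letters and not a bound site.

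The likeness extends into the transcripts. The coding sequences of Saa1 and Saa2, of 369 bases each, were identical at 351 positions (95.1%), and the transcripts shared a run of 99 bases. Saa3 had 79.2% identity with Saa1 and 78.6% with Saa2, and its longest run shared with Saa1 was 58 bases. Saa4 had 69.0% to 69.8% identity with the other 3 and no shared run above 15 bases. The sources used here do not give how reads that match more than one of these genes were assigned, so values of Saa1 and Saa2 are uncertain, and a small share of the Saa3 reads can in principle be counted under Saa1. The gene table of RefSeq also lists Saa1 as a synonym of Saa2 and Saa2 as a synonym of Saa1, so which of the pair each row of the deposited table means cannot be told apart.

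Saa1 was at 14.2 FPKM in WT_CAF 4, at 1.29 and 1.22 in WT_CAF 2 and 3, and listed at 0 in WT_CAF 1 and 5. In NPF 1 to 3 it was 2.79, 0.160 and 0. It was 0.341 and 0.223 FPKM in WT_tumor 3 and 4 and listed at 0 in WT_tumor 1 and 2. Among the knockout libraries only KO_CAF 2 had a value, 0.113 FPKM, and the other 5 were listed at 0. The libraries with the most Saa1 were thus WT_CAF 4 and NPF 1, and the groups overlapped at the low end. For 373 genes with transcripts of similar length, the tenth percentile of values above 0 lay between 0.0645 and 0.316 FPKM per library. Values of Saa1 under about that level are therefore low among the values above 0 listed for genes of this size. Far lower values were also listed for such genes, so that level is not a limit of detection.

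The ratio of Saa3 to Saa1 varied widely between libraries. Per length, Saa3 stood 83.3 times above Saa1 in WT_CAF 4 and 3519 times above it in WT_CAF 3. WT_CAF 5, with 2270 FPKM of Saa3, was listed at 0 for Saa1, Saa2 and Saa4. Saa3 made up 98.7% or more of the summed FPKM of Saa1 to Saa4 in WT_CAF, 92.1% to 99.1% in NPF and 93.3% or more in WT_tumor. The fibroblasts and tumor cells of this series thus held family RNA almost wholly as Saa3.

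By limma, Saa1 differed by -1.60 ± 0.77 in KO_CAF against WT_CAF (adjusted p = 1, 0.056 unadjusted) and by -0.19 ± 0.70 in KO_tumor against WT_tumor (adjusted p = 1). The first of these rests on WT_CAF 3 to 5, and the plain difference of means was -1.20. WT_tumor against WT_CAF gave -1.47 ± 0.74 (limma adjusted p = 0.17), and without WT_CAF 5 it passed the threshold, at -2.25 (limma adjusted p = 0.029). Saa1 reached 1 FPKM only in WT_CAF 2, WT_CAF 3, WT_CAF 4 and NPF 1, so its entry into the test depended on high WT_CAF values. That selection favors lower values in the groups compared with WT_CAF. WT_CAF 5 was listed at 0 for Saa1, so leaving it out adds to the selection, and no conclusion is drawn from that call. WT_CAF against NPF gave -0.11 ± 0.83 (limma adjusted p = 0.97), and this difference was above 0 in 7 of 28 alternatives. KO_tumor against KO_CAF gave -0.05 ± 0.75 (limma adjusted p = 0.97). The test of whether the knockout difference itself differed between tumor cells and fibroblasts gave 1.41 ± 1.05 (limma adjusted p = 1). With all libraries none of these passed the threshold. For the test of the difference, 0.0% of all genes were called.

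Saa2 was highest in the same library as Saa1, at 1.46 FPKM in WT_CAF 4. It was 0.342 FPKM in WT_CAF 3, 0.0601 in WT_CAF 1, 0.232 and 0.270 in NPF 1 and 3 and 0.109 in WT_tumor 3, and it was listed at 0 in the other 12 libraries, all 6 knockout libraries among them. Saa4 was 0.177 FPKM in WT_CAF 4 and 0.0777 in NPF 1 and listed at 0 in the other 16. WT_CAF 4 therefore held the highest value of Saa1, Saa2 and Saa4 but only the third of Saa3. No pair of groups differed in Saa1, Saa2 or Saa4 by the exact permutation tests after adjustment over the 50 tests.

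Saal1, the neighbour, was low and varied little within each group with intact Saa3. It was 1.68, 1.53 and 2.37 FPKM in NPF 1 to 3, and 1.82, 2.20, 2.01, 3.41 and 3.61 in WT_CAF 1 to 5. In WT_tumor 1 to 4 it was 0.985, 1.05, 1.38 and 1.39. All WT_tumor libraries lay below all NPF libraries, as for 19.7% of all tested genes, and below all WT_CAF libraries. In KO_CAF 1 to 3 Saal1 was 2.68, 0.568 and 0.781 FPKM. In KO_tumor 1 to 3 it was 0.108, 0.144 and 0.448 FPKM, below all WT_tumor libraries, as for 2.25% of all tested genes. KO_CAF 2 and 3 lay below all WT_CAF and NPF libraries, while KO_CAF 1 lay within the WT_CAF range.

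The group means of Saal1 were 2.61 ± 0.835 FPKM in WT_CAF (SD, n = 5), 1.86 ± 0.447 in NPF (SD, n = 3), 1.34 ± 1.16 in KO_CAF (SD, n = 3), 1.20 ± 0.214 in WT_tumor (SD, n = 4) and 0.234 ± 0.187 in KO_tumor (SD, n = 3). Neighbours in this order were compared by exact permutation tests. WT_CAF against NPF gave p = 0.196, NPF against KO_CAF 0.4 and KO_CAF against WT_tumor 1 by exact test. WT_tumor against KO_tumor, where the groups did not overlap, gave exact p = 0.0286, the smallest that 4 against 3 libraries allow, and 0.238 after adjustment over the 50 tests. Of all tested genes, 2.25% had every KO_tumor library below every WT_tumor library.

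By limma the knockout differences of Saal1 were of similar size in both cell types. KO_CAF minus WT_CAF was -0.87 ± 0.31 (limma adjusted p = 1, 0.013 unadjusted) and KO_tumor minus WT_tumor was -0.84 ± 0.28 (limma adjusted p = 1, 0.0096 unadjusted). The fibroblast estimate rests on WT_CAF 3 to 5, and the plain differences of means were -0.70 and -0.84. The limma difference between the 2 knockout differences was 0.04 ± 0.42 (limma adjusted p = 1) and changed sign in 10 of 28 alternatives. In KO_CAF against WT_CAF none of the 3 tested genes of the cluster was called, where 0.00748% of all genes were. Saa3 and Saal1 had an unadjusted p under 0.05, lower in the knockout, as did 0.471% of all tested genes. In KO_tumor against WT_tumor none of the 3 was called, where 0.0% of all genes were, and Saal1 alone had an unadjusted p under 0.05, where 1.8% of all genes were lower at that level.

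A contrast that averages both knockout differences, added after the values were seen, gave -0.86 ± 0.21 for Saal1 (limma adjusted p = 1, 9.7e-04 unadjusted). None of the 3 tested genes was called, where 0.015% of all genes were, and 1.17% of all genes were lower at an unadjusted p under 0.05, Saa3 and Saal1 among them. Ordered by p among the genes that were lower in this average, the deleted gene Saa3 came first and Saal1 second, the 10th of 13369 genes in either direction. The estimate was below 0 in all 28 alternatives, from -1.74 to -0.30, and did not pass the threshold in any. The lowest adjusted p of these was 0.075, without KO_CAF 1. By index form, the fibroblast difference was -0.32 within the 6-base and -1.34 within the 16-base libraries, and the tumor cell difference was -0.84 and -0.79. At 0.108 to 0.448 FPKM, the KO_tumor values are low, and their precision is unknown without fragment counts.

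Saal1 was also called lower in WT_tumor than in WT_CAF, at -0.86 ± 0.29 (limma adjusted p = 0.0496). This call lies at the threshold and held in 7 of 28 alternatives, with adjusted p from 0.022 to 0.157, while the difference was below 0 in all 28. The 2 groups did not overlap (exact permutation p = 0.0159, adjusted 0.223), as for 7.01% of genes in this direction. KO_tumor minus KO_CAF was -0.83 ± 0.30 (limma adjusted p = 0.052), and none of the 3 tested genes was called there, where 28.4% of all genes were. In that comparison Saal1 alone of the 3 had an unadjusted p under 0.05. WT_CAF minus NPF was 0.08 ± 0.33 (limma adjusted p = 0.94).

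The other genes around the cluster were examined in their order on the chromosome. In RefSeq the cluster runs Saal1, Saa3, Saa4, Saa1, Saa2. Of 10 protein-coding genes on each side, Saal1 included, all 20 were in the deposited table and 12 were tested. Saal1 was the only one of the 12 with an unadjusted p under 0.05 in either knockout comparison, and none was called by limma. Beyond Saal1 lies Tph1, the tryptophan hydroxylase of peripheral serotonin synthesis, at -0.80 ± 0.77 in KO_CAF and -1.01 ± 0.70 in KO_tumor against the matching wild type. Sergef, a guanine nucleotide exchange factor-like protein, was at -0.38 ± 0.24 and 0.00 ± 0.22. Kcnc1, a potassium channel, was not tested.

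On the Saa2 side the nearest gene is Hps5, a subunit of a complex for lysosome-related organelles, with knockout differences of -0.09 ± 0.28 in fibroblasts and -0.10 ± 0.25 in tumor cells. Gtf2h1, a subunit of the transcription factor TFIIH, was at 0.07 ± 0.25 and 0.21 ± 0.23. Ldha, the lactate dehydrogenase subunit of muscle and tumors, was at -0.50 ± 0.55 and 0.20 ± 0.50, and its testis counterpart Ldhc was not tested. The values on this side lie on both sides of 0. Over the 11 tested neighbours other than Saal1, the median difference was -0.23 in fibroblasts and 0.16 in tumor cells, beside -0.01 and -0.02 over all genes tested.

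**Figure D3:**
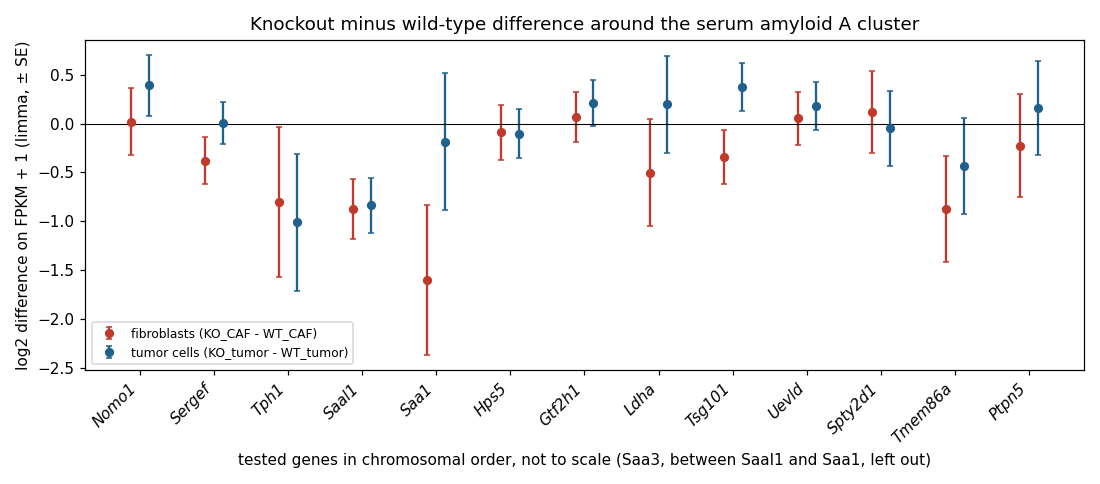
Knockout minus wild-type difference (limma estimate on log2(FPKM + 1), bars are standard errors) for the tested genes around the cluster, in chromosomal order and not to scale, in fibroblasts and in tumor cells. Saa3 is left out because it is the deleted gene. Saal1 lies at -0.87 and -0.84, and neither difference was called by limma. The bars of Saal1, Tph1 and Tsg101 do not reach 0 in either cell type, with the values of Tsg101 on opposite sides of 0.

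Genes whose pattern was most like that of Saa3 were found by Pearson's r of log2(FPKM + 1) over the 12 libraries with intact Saa3 among 8349 genes with a mean of at least 5 FPKM. The closest were Zbp1, a sensor of nucleic acids (r = 0.94), the membrane protein gene Tmem176a (0.93), the ribonuclease P subunit Rpp25 (0.92), the sialic acid lyase Npl (0.92) and Trem2, a lipid receptor of macrophages (0.91). Rgcc (0.91), the secreted Wnt pathway protein Dkk3 (0.91), the peptide hormone Apln (0.90), the kininogen Kng2 (0.90) and the carboxypeptidase Cpz (0.90) followed. These values describe the choice, and the libraries share the cell type differences named for the markers. In all 10 genes WT_CAF 1 was the lowest WT_CAF library and NPF 1 the highest NPF library, and in 8 of 10 WT_tumor 3 was the highest WT_tumor library.

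The KO_CAF libraries were not used for that choice, but the NPF, WT_CAF and WT_tumor values beside them were. In KO_CAF 1 to 3 Zbp1 was at 29.8, 12.9 and 27.6 FPKM, against 3.17 to 9.09 in NPF, 1.82 in WT_CAF 1 and 13.0 to 66.5 in WT_CAF 2 to 5. Cpz was at 37.7, 80.0 and 77.8 FPKM, against 1.79 to 4.31 in NPF, 1.88 in WT_CAF 1 and 57.9 to 90.7 in WT_CAF 2 to 5. Kng2 was at 27.3, 117 and 135 FPKM, against 0.799 to 10.5 in NPF, 4.96 in WT_CAF 1 and 57.2 to 196 in WT_CAF 2 to 5. The limma differences of KO_CAF against WT_CAF ran from -1.74 to -0.12, with a median of -0.43, and none of the 10 passed the threshold.

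**Figure D4:**
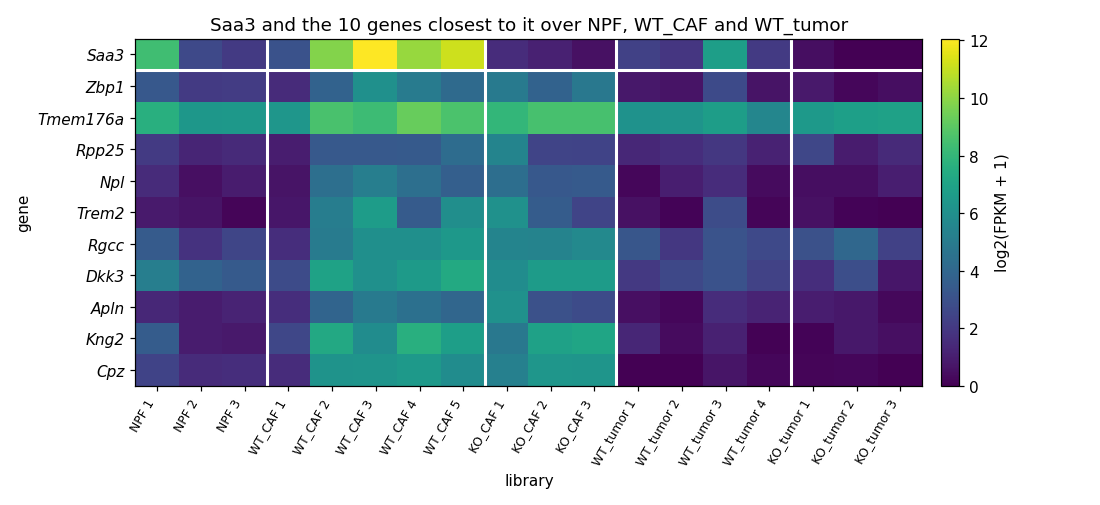
Heat map of log2(FPKM + 1) of Saa3 (top row) and of the 10 genes closest to it (rows) in the 18 libraries (columns, by group). The 10 genes are above all NPF libraries in WT_CAF 2 to 5 and in the KO_CAF libraries, where Saa3 is at or below 1.85 FPKM. Rpp25, Npl and Apln in KO_CAF 2 and 3 lie below WT_CAF 2 to 5. Tmem176a, Dkk3, Kng2 and Cpz lie below WT_CAF 2 to 5 in KO_CAF 1, Zbp1 does in KO_CAF 2 and Trem2 in KO_CAF 3. WT_CAF 1 is the lowest WT_CAF library for each of the 10.

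For Saa1 and Saal1 the closest genes over all 18 libraries (8390 genes compared) were less alike. The nearest to Saa1 were P2rx4 (r = 0.72) and Ugcg (0.71), followed by Carkd, Cst3 and Flot1 (each 0.67). The nearest to Saal1 were Itm2c, Apbb1 and 1810043G02Rik (each 0.76), with Ak1 and Slc35f6 (each 0.75). Spearman's rho for P2rx4 was 0.35, and WT_CAF 4 held its highest value, 74.6 FPKM, as it did for Saa1.

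The inducers of the family and their signal chain were taken as a list of 27 genes, all of which were tested. In WT_tumor against WT_CAF, 7 of the 27 were lower and none higher, with a median of -0.70 beside 0.07 over all genes. The list runs in the direction of Saa3 here, and 12.5% of all genes were called lower. Il6, the main inducing cytokine, was at -6.64 ± 1.24 (limma adjusted p = 0.0025), and the interleukin 1 receptor Il1r1 at -4.18 ± 0.69 (limma adjusted p = 0.0013). Osmr, the oncostatin M receptor, was at -3.37 ± 0.60, the shared receptor chain Il6st at -2.46 ± 0.49, Cebpb at -2.18 ± 0.55, the tumor necrosis factor receptor Tnfrsf1a at -1.51 ± 0.48 and Stat3 at -1.27 ± 0.43. The 7 genes thus span a ligand, receptor chains and transcription factors. The fibroblast markers also differ between these groups, by the ranges given above, and their part in the list's difference was not tested.

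In KO_tumor against KO_CAF, 6 of the 27 were called lower and 2 higher, a share near the 28.4% of all genes called in either direction. The 2 higher genes were the inducing cytokines Il1a (3.20 ± 0.99) and Tnf (3.22 ± 0.80). Leaving out WT_CAF 1 gave 12 lower and 2 higher in this comparison, and leaving out NPF 1 as well gave 14 lower. These libraries are in neither group, the list's median was -0.95 in each of these analyses, and the cause of the change was not tested. Over all genes, 2193 to 4435 were called in this comparison when single libraries were left out. The list counts can therefore not be read as particular to the inducers.

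The ratio of Il6 to Saa3 also varied between libraries. Il6 was 26.5 FPKM in WT_CAF 1 and 995, 414, 653 and 79.6 in WT_CAF 2 to 5, so that WT_CAF 5 paired the second highest Saa3 with low Il6. In NPF 1 to 3 Il6 was 130, 101 and 169 FPKM, evenly spread where Saa3 was not. In KO_CAF 1 to 3 it was 133, 929 and 609. Cebpb was 54.1, 228, 620, 1522 and 649 FPKM in WT_CAF 1 to 5 and 547, 348 and 1398 in KO_CAF. No inducer gene was called in KO_CAF against WT_CAF or in KO_tumor against WT_tumor, and none had an unadjusted p under 0.05 in limma in either. In WT_CAF against NPF none was called and 1 had an unadjusted p under 0.05, lower in WT_CAF. Without WT_CAF 1 that comparison rests on WT_CAF 2 alone, and the median difference of the list moved from 0.33 to 0.88.

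Receptors and binding partners of serum amyloid A made a list of 18 genes, of which 15 were tested. Fpr2, the formyl peptide receptor that binds serum amyloid A, was at or below 1.43 FPKM in all libraries. Tlr2, which also binds it, was 2.36 to 11.1 FPKM in WT_CAF and 0.540 to 1.53 in WT_tumor, and Tlr4 was 2.08 to 10.3 and 1.41 to 7.14. In WT_tumor against WT_CAF 6 of the 15 were called lower, beside 12.5% of all genes: Tlr2 (-1.63 ± 0.38), the scavenger receptor Scarb2 (-2.00 ± 0.35), the ATP-gated channel P2rx7 (-2.53 ± 0.36), the lipoprotein receptor Lrp1 (-4.24 ± 0.52), the apolipoprotein Apoe (-6.12 ± 0.96) and the heparan sulfate proteoglycan Hspg2 (-2.32 ± 0.67). The cell surface proteoglycan Sdc1 was higher, at 1.66 ± 0.46 (limma adjusted p = 0.021). KO_tumor against KO_CAF called the same 7 genes, 6 lower and Sdc1 higher, beside 28.4% of all genes in either direction.

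Sdc1 was also the one gene of this list called in WT_CAF against NPF, at 3.61 ± 0.53 (limma adjusted p = 0.0041). Sdc1 was at 315, 121, 79.2, 58.5 and 136 FPKM in WT_CAF 1 to 5 and at 17.8, 17.4 and 11.0 in NPF 1 to 3. WT_CAF 1 was the highest. Without WT_CAF 1, and without WT_CAF 1 and WT_tumor 4, 1 gene of the list was still called higher, beside 101 and 90 of all genes tested. Without NPF 1 and WT_CAF 1 none of the list was. Neither knockout comparison called a gene of the list. At an unadjusted p under 0.05 in limma there was none in fibroblasts and 1, lower, in tumor cells.

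Other acute-phase proteins made a list of 20 genes, of which 13 were tested. In WT_tumor against WT_CAF 7 of the 13 were called lower, beside 12.5% of all genes, none was higher, and the median was -3.51. The hemoglobin-binding haptoglobin (Hp, -7.63 ± 1.23) and the lipopolysaccharide-binding protein Lbp (-4.14 ± 1.20) were among them, with the protease inhibitors Serpina3n (-7.43 ± 1.26) and Serpina3g (-3.60 ± 0.52), the complement component C3, Itih3 and Steap4. In this comparison leaving out WT_CAF 1 gave 8 lower genes of 13, and leaving out WT_tumor 3 gave 6 of the 12 then tested. Over all genes, 761 to 2002 were called lower when single libraries were left out. In KO_tumor against KO_CAF 7 of the 13 were lower and none higher, beside 28.4% of all genes called in either direction. C3 was listed at 0 in KO_CAF 2 beside 1353 and 2508 FPKM in KO_CAF 1 and 3, so its knockout estimate is not given.

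Haptoglobin shared part of the Saa3 pattern. It was 5.45, 555, 200, 1200 and 405 FPKM in WT_CAF 1 to 5, low in the same library as Saa3. In NPF 1 to 3 it was 5.09, 0.387 and 2.61 FPKM. In KO_CAF 1 to 3 it was 478, 609 and 527 FPKM, so all 3 knockout libraries lay within the WT_CAF range while Saa3 was at most 1.85 FPKM. WT_CAF against NPF called none of the 13 acute-phase genes, and 1 (Hp, 4.26 ± 1.40, limma adjusted p = 0.16) had an unadjusted p under 0.05. These estimates rest on WT_CAF 1 and 2. Without WT_CAF 1 they rest on WT_CAF 2 alone, and the list median moved from 1.09 to 2.32. Neither knockout comparison called one or had one at an unadjusted p under 0.05 by limma, with a list median of 0.20 in fibroblasts and -0.06 in tumor cells.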

How the data were processed

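Poly(A) RNA of cells sorted from fresh mouse tumor and pancreas was prepared with an Illumina TruSeq RNA kit and read on a HiSeq2000, per the labels' protocols. FPKM values for 23951 gene symbols in 18 libraries were deposited by the authors as 1 table. The submitters' processing notes name Cufflinks 2.2.1 and Cuffnorm beside TopHat2 2.0.10 and Bowtie 1.0.0, and list mm9 as the one mouse build. The sources used here do not give the gene annotation or the order of steps. FPKM of this kind is a model estimate, so an exact 0 can be a failed estimate, and single library values are given. Collagen genes listed at 0 in fibroblast libraries may be of this kind: Col3a1 in WT_CAF 2, 3 and 4 and Col1a1 in KO_CAF 2.

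Group differences on log2(FPKM + 1) were fitted in R 4.3.3 with limma 3.58.1, using a mean-variance trend. The filter kept 13369 genes that reached 1 FPKM in 3 or more libraries and removed 10582. All 18 libraries entered 1 fit with group and form of the index, and leave 11 residual degrees of freedom. P-values were two-sided and Benjamini-Hochberg adjusted over all genes tested, with a threshold of 0.05. Differences on this scale understate changes of low genes. P-values measure the spread between these libraries. Single genes were also compared between all 10 pairs of groups by exact permutation tests of the difference of means, adjusted over 50 tests. The fit was tested on simulated data.

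Sequences come from RefSeq (GRCm38.p6), and coding and transcript sequences from GENCODE for the same build. Coordinates are of that build and not of mm9. Named genes were all 5 members, 4 neighbours on each side, the called genes of each list (or those highest in WT_CAF up to 4 genes), and the genes of highest r. Further genes were named after their values were seen. The members and the lists were chosen with earlier results of these data known. Alternatives changed the pseudocount, filter, scaling, index term, libraries and fit.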

Additional observations from a re-analysis of the deposited data

Results flagged for a closer look

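In 4 sets of 4 or 5 libraries of a group, a library stood apart from the others by Dixon's criterion on log2(FPKM + 1). The gap to the nearest library, as a share of the whole range, is given for each. Saa3 in WT_CAF was lowest in WT_CAF 1, at 7.24 FPKM, with a share of 0.749 against a critical value of 0.71. Saa3 in WT_tumor was highest in WT_tumor 3, at 106 FPKM, with a share of 0.908 against 0.829. Saa2 in WT_tumor was highest in the same library, at 0.109 FPKM, and Saa4 in WT_CAF was highest in WT_CAF 4, at 0.177 FPKM. In both of these last cases all other libraries of the group were listed at 0, so the share is 1 by construction, and these 2 are not counted against the rate of about 1 in 20 groups that chance gives.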

How the results depend on the processing

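All values are limma differences on log2(FPKM + pseudocount) unless named as counts. Saa3 WT_CAF against NPF passed the threshold at 6.44 with WT_CAF 1 left out and no index term. It was 7.45 with NPF 1 and WT_CAF 1 left out, a setting that was not planned and that sets WT_CAF 2 alone against NPF 2 and 3. NPF 1 is the highest NPF library in Saa3 and WT_CAF 1 the lowest WT_CAF library. Leaving them out therefore favors a difference, and no conclusion is drawn from these settings. Leaving out single libraries gave -1.32 to 5.44. In those same 2 settings Saa3 in KO_CAF against WT_CAF passed, at -9.76 and -10.40. Saa1 WT_CAF against NPF changed sign at 0.0088 (FPKM rescaled to the same sum), 0.54 (no index term), 0.86 (WT_CAF 1 out, no index term), 0.49 (WT_CAF 1 and WT_tumor 4 out) and 1.09 (NPF 1 and WT_CAF 1 out), and over single libraries it ran from -0.71 to 0.49. Saal1 WT_tumor against WT_CAF lost its call at -1.30 (pseudocount 0.1), -0.86 (no filter; also NPF 1 and WT_CAF 1 out), -0.79 (same sum), -0.81 (quantile normalization), -0.69 (no index term), -0.77 (only the groups compared) and -0.90 (WT_CAF 1 and WT_tumor 4 out), with -1.23 to -0.76 over single libraries. Saal1 KO_tumor against KO_CAF passed at -1.96 (pseudocount 0.1) and -0.83 (WT_CAF 1 out, no index term), with -1.09 to -0.43 over single libraries. The Saal1 difference between the knockout effects changed sign at -0.66 (pseudocount 0.1), -0.030 (same sum), -0.14 (no index term) and -0.058 (WT_CAF 1 out, no index term), with -0.18 to 0.40 over single libraries. Over single libraries Saa1 ran from -2.25 to -0.47 in WT_tumor against WT_CAF and from -0.14 to 0.024 in KO_tumor against KO_CAF, and Saal1 from -0.0088 to 0.21 in WT_CAF against NPF. Saa1 was 0 within the 16-base index in both comparisons of KO_tumor. The cause of these changes was not tested.

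Genes called in WT_CAF against NPF numbered 127, and 249 with no filter, 59 with a 5 FPKM filter, 62 at the same sum, 307 with no index term, 7 in only the groups compared and 906 with WT_CAF 1 out and no index term (20 to 1330 over single libraries). KO_CAF against WT_CAF called 1 gene, and 0, 4 and 2 in only the groups compared, with WT_CAF 1 out and no index term, and with NPF 1 and WT_CAF 1 out (1 to 2 over single libraries). KO_tumor against WT_tumor called 0, and 5 with no filter and 1 without WT_CAF 1 and WT_tumor 4 (0 to 1). WT_tumor against WT_CAF called 2880, and 844 in only the groups compared (1201 to 3552). KO_tumor against KO_CAF called 3798 (2193 to 4435). The test of the difference between knockout effects called 0, and 1 with a pseudocount of 5, with no index term, with WT_CAF 1 out and no index term, and without WT_CAF 1 and WT_tumor 4 (0 to 1). Rescaling to the same sum moved the median of all genes from -0.01 to 0.19 in WT_CAF against NPF and from 0.07 to 0.22 in WT_tumor against WT_CAF. The 5 FPKM filter removes Saa1 and Saal1 and gives no value for them. No paired analysis was possible because replicate numbers follow the deposition order. Fragment depth is unknown.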
